A study of Saccharomyces cerevisiae with 12 samples.

Results

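The 37 genes described here carry the standard name ATG followed by a number, which yeast genetics gave to genes of autophagy. They were taken by that name from the R64 gene table, and all 37 were among the 5585 protein-coding genes matched to rows of the count table. Each of them passed the filter on low counts, which left 5560 genes to test. Autophagy encloses cytoplasm in a membrane sac, the autophagosome, and delivers it to the vacuole, the lysosome of yeast, for breakdown. The Atg1 kinase complex starts the process, Atg9 vesicles and Atg2 supply membrane, a phosphatidylinositol 3-kinase marks the site, and ubiquitin-like conjugation attaches Atg8 to lipid. Selective receptors tie cargo to Atg8 or to the scaffold Atg11, and transcription of ATG8 and ATG1 is known to rise when yeast is starved of nitrogen.

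RNA with poly(A) tails was sequenced in 12 libraries, which the design text calls biological replicates: 4 of the wild type (WT), 4 of pup2-ts and 4 of rpn5-ts. Cells grew untreated in YPD, a rich medium, and were taken near an optical density of 0.5, at a temperature the labels do not state. Pup2 is a subunit of the proteasome's core particle and Rpn5 one of its lid, and both mutants carry temperature-sensitive alleles marked with URA3. WT, which the names of replicates 3 and 4 give as By4741, is MATa with his3Δ1 and leu2Δ0, and with met15Δ0 and ura3Δ0; the mutants are labelled with those alleles and also with lys2Δ0 and can1Δ::LEU2-MFA1pr::His3, so an effect of a temperature-sensitive allele cannot be told apart from one of these markers in a comparison with WT.

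Counts in protein-coding genes totalled 18.5 to 60.6 (in 1e6) per library, and levels are given as CPM, counts per 1000000 counts of the library after scaling by TMM factors. The marker URA3 stood at 3.63 to 4.66 CPM in WT and 81.7 to 125 CPM in the mutants, and CAN1 at 175 to 224 CPM against 9.78 to 16.7 CPM. A temperature-sensitive allele alters the protein, so no set level of PUP2 or RPN5 follows from the labels. Their levels did differ between the groups. PUP2 was at 179 to 218 CPM in WT, 220 to 264 in pup2-ts and 368 to 496 in rpn5-ts. RPN5 was at 277 to 448 CPM in WT, 651 to 821 in pup2-ts and 400 to 514 in rpn5-ts replicates 2 to 4. In the library labelled rpn5-ts replicate 1, PUP2 was at 496 and RPN5 at 732 CPM. The library labelled rpn5-ts replicate 1 went against its label: LYS2 was at 213 CPM there and at most at 0.209 CPM in the other mutant libraries. MET17, the gene of met15Δ0, was at 249 CPM in the same library and at 196 to 587 CPM in the pup2-ts libraries, against at most 0.0931 CPM in the rest. All 4 pup2-ts libraries thus also went against their met15Δ0 label. In pup2-ts against WT the alleles cannot be told apart from this difference in MET17. The same holds between pup2-ts and rpn5-ts replicates 2 to 4. The members' called rpn5-ts values against WT are also given with the library labelled rpn5-ts replicate 1 left out; in values from replicates 1 and 2 alone it is 1 of the 2 rpn5-ts libraries. In every group the sample names of the last 2 replicates, 3 and 4, contain DNAse, while those of 1 and 2 lack it; what this form of the name stands for is not given in the labels. In bulk RNA, a higher level per cell and a larger share of cells with the transcript cannot be told apart.

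The promoter windows of 3 members that the results turn on are shown because they differ in the motifs they hold: ATG8 and ATG1, which code for the central lipid-bound protein and the starting kinase, and ATG42, which codes for a vacuolar carboxypeptidase. Each runs 5′ to 3′ on the gene's strand, from 250 bases before to 50 bases after the first coding base of the RefSeq annotation of R64 (sacCer3). The windows are chrII:80682-80981 (minus strand) for ATG8, chrVII:159815-160114 (plus strand) for ATG1 and chrII:515414-515713 (plus strand) for ATG42. Capitals mark AGGGG, the pentamer of stress response, GATAAG, the nitrogen-response site, and the Ume6 core GGCGGC.
ATG8: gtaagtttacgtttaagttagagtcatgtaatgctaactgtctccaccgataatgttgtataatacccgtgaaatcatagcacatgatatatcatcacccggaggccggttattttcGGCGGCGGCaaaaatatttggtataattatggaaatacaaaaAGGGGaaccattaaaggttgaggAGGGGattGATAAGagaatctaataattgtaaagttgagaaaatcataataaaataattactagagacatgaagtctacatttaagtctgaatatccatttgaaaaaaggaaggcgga
ATG1: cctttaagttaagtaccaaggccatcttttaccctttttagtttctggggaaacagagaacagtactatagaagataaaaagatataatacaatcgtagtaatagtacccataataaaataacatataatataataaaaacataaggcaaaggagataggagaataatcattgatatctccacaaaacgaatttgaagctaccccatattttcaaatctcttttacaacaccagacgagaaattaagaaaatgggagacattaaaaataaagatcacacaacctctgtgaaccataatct
ATG42: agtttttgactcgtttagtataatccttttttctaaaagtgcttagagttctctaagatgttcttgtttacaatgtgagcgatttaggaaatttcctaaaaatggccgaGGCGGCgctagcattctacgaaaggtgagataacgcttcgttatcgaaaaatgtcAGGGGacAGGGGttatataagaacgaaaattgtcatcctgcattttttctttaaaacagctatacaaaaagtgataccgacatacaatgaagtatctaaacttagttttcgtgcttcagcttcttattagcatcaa

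Motifs of 6 kinds were searched on both strands of the windows of all 37 members and of 6001 genes in all. AGGGG, the stress element read by Msn2, Msn4 and the repressor Rph1, was in 8 member windows (21.6%) and in 21.6% of all windows. It occurred in ATG8 at 91 and 68 bases before the coding start and in ATG42 at 86 and 79 bases. GATAAG, the site of the nitrogen-responsive factors Gln3 and Gat1, was in 10 member windows (27.0%, against 14.7% of all), among them those of ATG8, ATG9, ATG18, ATG33 and ATG40. GGCGGC, the core of the site of the repressor Ume6, whose letters the longer Ume6 site also holds, was in ATG8, ATG19 and ATG42 (8.1%, against 5.1%); it was added to the search after the windows had been read. The longer Ume6 site TAGCCGCC was in 0 member windows and 1.2% of all. TGACTCA, the site of Gcn4, was in ATG13 and ATG29 (5.4%, against 2.7%). GGTGGCAAA, the site of the proteasome regulator Rpn4, was in the window of ATG14 alone (2.7%, against 1.2%), inside the coding part of the window. The windows of ATG1 and ATG5 held none of the 6.

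Per length, ATG transcripts were sparse in WT. The median member stood at 18.5 CPM per kb against 42.8 for all genes tested, and 33 of the 37 were below that all-gene median. ATG27, a membrane protein that helps Atg9 traffic, was highest at 134 ± 11.9 CPM per kb (mean ± SD, n = 4). ATG44, which codes for a mitochondrial fission factor, followed at 68.2 ± 10, then ATG5 at 55.4 ± 12.1 and ATG41 at 50.9 ± 40.2 CPM per kb, whose spreads overlap. ATG8 was at 30.2 ± 15.4 and ATG1 at 9.1 ± 4.43 CPM per kb, and the receptor gene ATG39 was lowest at 2.96 ± 2.66. The counted interval of ATG32 is 188 bases and holds 0 coding bases, so the values given for ATG32 are those of that interval and not of its coding transcript; it is kept in all counts of members. In 30 of the 37 members the counted interval contained the whole coding interval, and in 6 it missed 1 to 35 bases. Another annotated unit on the same strand overlapped 11 members. ATG5 and a unit that shares 900 bases with it averaged 52.9 and 53.5 CPM in WT, so reads were not split there. Counts of these members may include reads of the overlapping unit.

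In pup2-ts against WT, 4 of the 37 members rose (ATG1, ATG5, ATG16 and ATG21) and 0 fell; of all genes tested 15.4% changed and 8.72% rose (edgeR, Benjamini-Hochberg adjusted p under 0.05). In rpn5-ts against WT, 5 members rose (ATG1, ATG3, ATG21, ATG22 and ATG42) and 0 fell, where 13.7% of all genes changed and 8.27% rose. These shares, 10.8% and 13.5% of the members, are near the background for either direction. The member median of the log2 fold change was 0.13 in pup2-ts and 0.25 in rpn5-ts, beside -0.023 for all genes in both. The pup2-ts median was -0.046 in replicates 1 and 2 alone and 0.24 in replicates 3 and 4 alone. The estimate was above 0 for 22 and 30 of the 37 members, against 46.8% and 47.3% of all genes. DESeq2 called 7 members in each mutant, where it called 22.1% of all genes in pup2-ts and 20.5% in rpn5-ts. Both comparisons share the 4 WT libraries.

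With the replicate number as a block, 9 members rose and 3 fell in pup2-ts (19.5% and 19% of all genes). In rpn5-ts 14 rose and 0 fell (20.7% of all genes rose, and about as many fell). The labels do not state a pairing by number. Libraries of the same form often correlated as closely as same-numbered ones, so the block also takes up the split by form. In pup2-ts the block added ATG2, ATG4, ATG18, ATG33 and ATG42 to those that rose, and ATG15, ATG26 and ATG32 fell; in rpn5-ts it added ATG2, ATG4, ATG5, ATG7, ATG13, ATG18, ATG33, ATG34 and ATG44. Without the rpn5-ts library labelled replicate 1, 3 members were called in pup2-ts (15.7% of all genes) and 8 in rpn5-ts, with ATG7, ATG34 and ATG36 added (16.9%). Without WT replicate 1, 4 were called in pup2-ts (14.9%), with ATG8 in place of ATG5, and 8 in rpn5-ts (13.8%). Leaving out each of the 12 libraries in turn gave 1 to 5 called members in pup2-ts and 0 to 8 in rpn5-ts, with 0 in rpn5-ts without WT replicate 4, rpn5-ts replicate 2 or rpn5-ts replicate 3. By the bare criterion that groups do not overlap, 2 members were higher in pup2-ts (12.1% of all genes) and 1 lower (9.73%). In rpn5-ts 3 were higher (11.1%) and 0 lower (8.08%), and 12 were higher when replicates 2 to 4 alone stood for rpn5-ts (16.5%). Against WT replicates 2 to 4, 7 were higher in pup2-ts (15.2%) and 13 in rpn5-ts (14.7%).

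**Figure D1:**
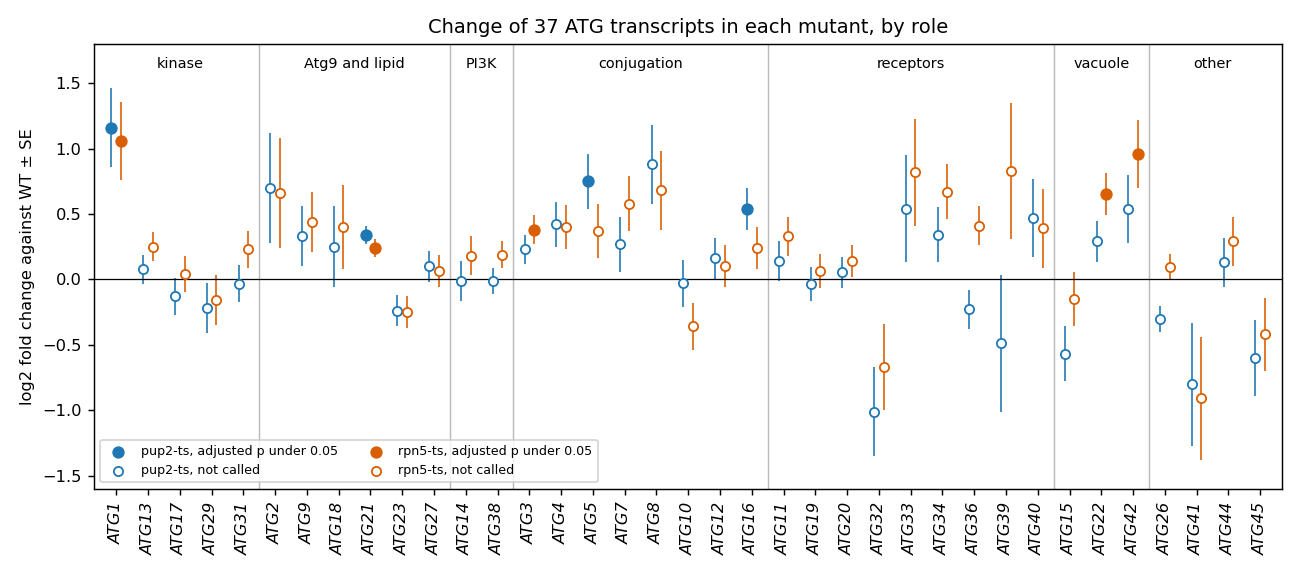
Log2 fold change of each of the 37 ATG genes (x axis, grouped by role) in pup2-ts and rpn5-ts against WT, with bars for the SE; filled points have an adjusted p under 0.05. The 4 filled pup2-ts points and 5 filled rpn5-ts points all lie above 0, and ATG1 and ATG21 are filled in both.

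Of the 5 genes of the Atg1 kinase complex, 1 rose in each mutant. ATG1, which codes for the kinase itself, stood at 47.7, 23.0, 18.6 and 21.4 CPM in WT replicates 1 to 4. It was at 49.7, 44.5, 80.8 and 73.4 CPM in pup2-ts and at 52.0, 45.3, 64.4 and 70.0 CPM in rpn5-ts. WT replicate 1 lay among the mutants, and the other WT libraries lay below all 8 mutant libraries. The log2 fold change was 1.16 ± 0.30 (SE; edgeR adjusted p = 0.024) in pup2-ts and 1.06 ± 0.30 (adjusted p = 0.039) in rpn5-ts, and 1.11 (adjusted p = 0.045) without the rpn5-ts library labelled replicate 1. Without WT replicate 1 it was 1.58 (adjusted p = 0.0016) and 1.48 (adjusted p = 0.003). The call was lost in pup2-ts without WT replicate 2, 3 or 4 or pup2-ts replicate 3 or 4 (adjusted p 0.061 to 0.073), and in rpn5-ts without WT replicate 2, 3 or 4 or rpn5-ts replicate 2, 3 or 4 (0.051 to 0.1). ATG13, the regulatory subunit that TOR signalling controls, had log2 fold changes of 0.078 and 0.25. The scaffold genes ATG17, ATG29 and ATG31 lay between -0.22 and 0.23, and none of these 4 was called, except ATG13 in rpn5-ts with the replicate block (0.24, adjusted p = 0.045).

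**Figure D2:**
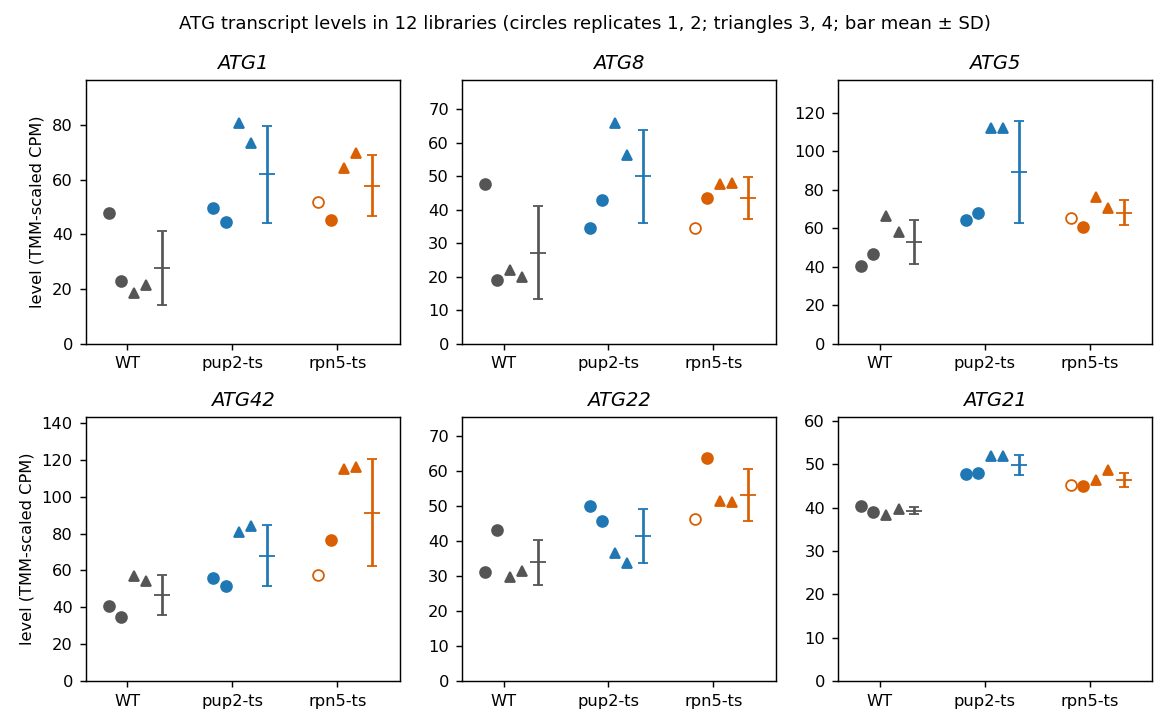
Levels in TMM-scaled CPM (y axis, from 0) of 6 ATG genes in the 12 libraries; circles are replicates 1 and 2, triangles replicates 3 and 4, the open circle is the library labelled rpn5-ts replicate 1, and bars give the mean ± SD (n = 4). WT replicate 1 is the WT library that lies among the mutants for ATG1 and ATG8, while for ATG21 all WT libraries (38.3 to 40.3) lie below all mutant libraries.

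Among the 6 genes of Atg9 membrane supply and lipid transfer, ATG21 rose in both mutants. Its product binds phosphatidylinositol 3-phosphate and helps place the Atg8 conjugation machinery. ATG21 was at 40.3, 39.1, 38.3 and 39.6 CPM in WT, at 47.8, 48.0, 51.9 and 52.0 CPM in pup2-ts and at 45.3, 45.1, 46.4 and 48.8 CPM in rpn5-ts. Neither mutant group overlapped WT. The change was small, 0.34 ± 0.071 in pup2-ts (adjusted p = 0.0072) and 0.24 ± 0.071 in rpn5-ts (adjusted p = 0.045). In pup2-ts it held without any 1 of the 12 libraries; in rpn5-ts it held without WT replicate 1 (0.043) or rpn5-ts replicate 1 (0.049) and was lost without any other library, with adjusted p of 0.055 to 0.15. ATG2, which codes for the lipid-transfer protein that feeds the growing membrane, was at 22.4, 15.7, 32.7 and 31.0 CPM in WT. It was at 23.7, 21.2, 60.0 and 60.3 CPM in pup2-ts and at 22.5, 28.2, 57.1 and 53.4 CPM in rpn5-ts. Replicates 3 and 4 were the high ones in every group, and the log2 fold changes of 0.70 ± 0.42 and 0.66 ± 0.42 were not called (adjusted p = 0.31 and 0.33; 0.86 in rpn5-ts, 0.19, without the rpn5-ts library labelled replicate 1); with the replicate block they were 0.59 (adjusted p = 0.015) and 0.60 (0.013). ATG18, another phosphoinositide-binding partner of Atg2, followed the same split, with block values of 0.26 (0.0073) and 0.40 (8.2e-04). ATG9, ATG23 and ATG27 were not called in either mutant.

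The subunits of the phosphatidylinositol 3-kinase complex that carry ATG names, ATG14 and ATG38, had log2 fold changes of -0.013 and -0.015 in pup2-ts and of 0.18 and 0.19 in rpn5-ts, with no call.

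Of the 8 genes of Atg8 and Atg12 conjugation, 2 rose in pup2-ts and 1 in rpn5-ts. ATG8, the ubiquitin-like protein itself, stood at 47.8, 18.9, 22.0 and 19.8 CPM in WT, at 34.6, 43.0, 65.9 and 56.4 CPM in pup2-ts and at 34.5, 43.6, 47.6 and 47.9 CPM in rpn5-ts. As with ATG1, 3 WT libraries lay below all mutant libraries and WT replicate 1 did not. The log2 fold changes, 0.88 ± 0.30 and 0.68 ± 0.30, missed the threshold (adjusted p = 0.071 and 0.16; 0.77 in rpn5-ts, 0.13, without the rpn5-ts library labelled replicate 1). Of 24 alternative settings for each mutant, 8 passed it in pup2-ts and 4 in rpn5-ts. Among these were the fits without WT replicate 1, at 1.32 (adjusted p = 0.0028) and 1.12 (0.0084). In pup2-ts the fit without pup2-ts replicate 1 also passed (1.02, 0.05 after rounding).

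ATG5, whose product is joined to Atg12, was at 40.5, 46.7, 66.3 and 58.0 CPM in WT and at 64.5, 67.9, 112 and 112 CPM in pup2-ts. In rpn5-ts it was at 65.4, 60.7, 76.1 and 70.3 CPM. The pup2-ts and WT ranges crossed at 1 library each, since replicates 3 and 4 were the higher ones in both. ATG5 rose by 0.75 ± 0.21 in pup2-ts (adjusted p = 0.032), and within replicates 1 and 2 alone and 3 and 4 alone the change was 0.61 (adjusted p = 0.017) and 0.87 (4.3e-07). It was not called without WT replicate 1 (0.66), 2 (0.70) or 4 (0.80), pup2-ts replicate 3 or 4 (0.62 each) or rpn5-ts replicate 2 or 4 (0.74 each), with adjusted p of 0.053 to 0.1. In rpn5-ts it was 0.37 ± 0.21 (adjusted p = 0.28), and with the block 0.39 (0.017).

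ATG16, which couples the Atg12–Atg5 conjugate to the membrane, was at 8.09, 5.57, 5.87 and 5.49 CPM in WT and at 9.29, 7.82, 9.95 and 9.32 CPM in pup2-ts. Only WT replicate 1 reached into the pup2-ts range. It rose by 0.54 ± 0.16 (adjusted p = 0.045), a call that held without WT replicate 1 (0.71, 0.0089) or pup2-ts replicate 2 and was lost without any other library (0.053 to 0.12). ATG3, the enzyme that transfers Atg8 to lipid, was at 25.8, 23.7, 25.0 and 22.1 CPM in WT and at 25.2, 34, 32.7 and 34.2 CPM in rpn5-ts, where the library labelled replicate 1 was the low one. It rose by 0.38 ± 0.11 in rpn5-ts (adjusted p = 0.038) and by 0.48 (0.0052) without that library; it missed the threshold when WT replicate 2, 3 or 4, pup2-ts replicate 2, 3 or 4 or rpn5-ts replicate 2, 3 or 4 was left out (0.051 to 0.12). The activating enzyme gene ATG7 was at 0.58 ± 0.21 in rpn5-ts (adjusted p = 0.097) and at 0.74 (0.025) without that library. The log2 fold changes of the protease gene ATG4 were 0.42 and 0.40, those of ATG12 0.16 and 0.1, and those of the transfer enzyme gene ATG10 -0.031 and -0.36, with no call but for ATG4 with the replicate block (0.41 in each mutant, adjusted p = 0.0032 and 0.0034); there ATG7 was at 0.57 (0.0039) in rpn5-ts.

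Of the 9 genes of selective receptors and adaptors, 0 were called by edgeR in either mutant, with an unadjusted p under 0.05 for 1 in pup2-ts and 2 in rpn5-ts (29% and 28.5% of all genes) and DESeq2 calls for 1 (ATG32) and 2 (ATG34 and ATG36), while 8 of the 9 estimates lay above 0 in rpn5-ts. ATG34, a receptor that brings a mannosidase to the vacuole, was at 16.9, 10.3, 10.3 and 10.5 CPM in WT, at 14.2, 13.4, 16.3 and 16.8 CPM in pup2-ts and at 12.8, 21.1, 21.4 and 21.4 CPM in rpn5-ts. WT replicate 1 and the library labelled rpn5-ts replicate 1 each stood apart from the tight values of their group. The rpn5-ts log2 fold change of 0.67 ± 0.21 (adjusted p = 0.056) became 0.90 (0.012) without WT replicate 1 and 0.82 (0.013) without the rpn5-ts library labelled replicate 1; with the replicate block it was 0.67 (0.04). ATG33 was called with the block in both mutants (0.45, 0.041 and 0.75, 0.004), as was ATG32 in pup2-ts (-0.93, 0.037). ATG36, the receptor for peroxisomes, was at 8.60, 6.94, 7.87 and 6.82 CPM in WT, at 6.66, 6.92, 5.88 and 6.24 CPM in pup2-ts and at 7.74, 10.1, 11 and 11.3 CPM in rpn5-ts. Its rpn5-ts log2 fold change of 0.41 ± 0.15 (adjusted p = 0.1) became 0.52 (0.029) without the rpn5-ts library labelled replicate 1. ATG39, the receptor for the nuclear envelope, was at 8.17, 3.09, 1.21 and 1.72 CPM in WT, at 3.56, 2.78, 1.95 and 1.82 CPM in pup2-ts and at 4.55, 9.75, 5.43 and 5.61 CPM in rpn5-ts. WT replicate 1 alone among the WT libraries lay within the rpn5-ts range, and the rpn5-ts log2 fold change was 0.83 ± 0.52 (adjusted p = 0.32) with it and 1.67 (0.018) without it. The scaffold gene ATG11 was at 0.33 ± 0.15 in rpn5-ts (adjusted p = 0.18) and at 0.49 (0.04) without WT replicate 1.

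Of the 3 genes that act in the vacuole, 2 rose in rpn5-ts. ATG42 was at 40.8, 34.7, 57.2 and 54.5 CPM in WT, at 56.1, 51.4, 80.6 and 83.9 CPM in pup2-ts and at 57.5, 76.4, 115 and 116 CPM in rpn5-ts. All rpn5-ts libraries lay above all WT libraries, with replicates 3 and 4 the highest. It rose by 0.96 ± 0.26 in rpn5-ts (adjusted p = 0.029) and by 1.13 (0.01) without the library labelled replicate 1. It missed the threshold without WT replicate 1 (0.92), 2 or 4 or rpn5-ts replicate 2, 3 or 4 (adjusted p 0.05 after rounding to 0.1). In pup2-ts it was at 0.54 ± 0.26 (adjusted p = 0.19), and 0.53 (0.0029) with the block. ATG22, which exports amino acids from the vacuole after breakdown, was at 31.1, 43.2, 29.6 and 31.4 CPM in WT, at 49.9, 45.6, 36.5 and 33.6 CPM in pup2-ts and at 46.1, 63.7, 51.4 and 51.0 CPM in rpn5-ts. The rpn5-ts and WT groups did not overlap, and ATG22 rose by 0.65 ± 0.16 (adjusted p = 0.023; 0.71, 0.021, without the library labelled replicate 1), a call lost without WT replicate 3 or 4 or rpn5-ts replicate 2 or 3 (0.052 to 0.066). ATG15, a vacuolar lipase that opens the delivered vesicles, had a log2 fold change of -0.57 ± 0.21 in pup2-ts (adjusted p = 0.097; with the block -0.56, adjusted p = 0.0011) and -0.15 in rpn5-ts; without WT replicate 2 it was called in pup2-ts. The remaining genes, ATG26, ATG41, ATG44 and ATG45, were not called against WT with all libraries in edgeR. With the replicate block ATG26 was lower in pup2-ts (-0.30, adjusted p = 0.0071) and ATG44 higher in rpn5-ts (0.27, 0.022). ATG26 was also called lower in pup2-ts by DESeq2 and without pup2-ts replicate 1 (-0.36, 0.041), and calls of ATG26, ATG41 and ATG45 appeared within single forms of the name.

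Between the mutants, 0 of the 37 members differed by edgeR, where 0.036% of all genes did; 3 members had an unadjusted p under 0.05 (6.03% of all genes), and DESeq2 called 2, ATG26 and ATG36 (0.486%). ATG36 was higher in rpn5-ts by 0.64 ± 0.15 (adjusted p = 0.49), and without the rpn5-ts library labelled replicate 1 it was the 1 member called, at 0.75 (adjusted p = 0.037; 0.827% of all genes). ATG26, a sterol glucosyltransferase gene, was at 76.6, 72.3, 62.2 and 59.6 CPM in pup2-ts and at 87.2, 92.1, 89.9 and 85.6 CPM in rpn5-ts. These groups did not overlap, and the log2 difference was 0.39 ± 0.10 (adjusted p = 0.53). ATG39 differed by 1.32 ± 0.53 (adjusted p = 0.78), again with no overlap of the groups. ATG26, ATG36 and ATG39 were the 3 members higher in every rpn5-ts library than in every pup2-ts library, and ATG10 was lower (each 2.32% of all genes). With the replicate block and without the rpn5-ts library labelled replicate 1, 7 members were higher in rpn5-ts (ATG7, ATG15, ATG22, ATG26, ATG36, ATG39 and ATG42; 4.01% of all genes) and 1 was lower, ATG5 (2.66%). There ATG39 differed by 1.83 ± 0.29 (adjusted p = 0.011), ATG42 by 0.53 ± 0.06 (0.0025) and ATG5 by -0.46 ± 0.094 (0.028).

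More genes and members were called by the form of the sample name than by strain. The form was tested with strain as a term, while the main strain counts come from a fit without the form. With the form as a term, calls by strain were more numerous than in that fit and still fewer than those by form. The largest member changes were of like size, 1.10 by form (ATG2) and 1.16 by strain (ATG1 in pup2-ts). Over the 3 groups, 12 members were higher in replicates 3 and 4 than in replicates 1 and 2, and 10 were lower, among 63.1% of all genes that differed (29.2% higher and 34% lower). ATG2 was higher by 1.10 ± 0.12 (adjusted p = 7.4e-06), ATG33, a mitophagy gene, by 1.08 ± 0.11 (5.1e-06) and ATG18 by 0.86 ± 0.045 (4.1e-08). ATG39 and ATG41 were lower, by -0.99 ± 0.32 (0.018) and -0.93 ± 0.30 (0.021). ATG1 (0.13) and ATG8 (0.099) were not called. Within replicates 1 and 2 alone, 2 members were called in pup2-ts against WT (ATG5 higher and ATG45 lower, among 10.7% of all genes) and 3 in rpn5-ts (ATG5, ATG18 and ATG42, 12.5%). Within replicates 3 and 4 alone, 22 were higher and 3 lower in pup2-ts (32% and 33.7% of all genes), and 25 were higher and 1 lower in rpn5-ts (32.8% and 30.7%). Each of these fits holds 2 libraries per group, so its SE and p rest on the spread within pairs. Within replicates 3 and 4, ATG1 was higher by 1.94 ± 0.082 in pup2-ts (edgeR adjusted p = 7.8e-10) and 1.74 ± 0.083 in rpn5-ts (3.2e-09). The changes were 0.42 (0.44) and 0.48 (0.36) in replicates 1 and 2. The WT pair of that form is uneven for ATG1, at 47.7 CPM in WT replicate 1 and 23.0 CPM in WT replicate 2, and WT replicate 2 lies below all mutant libraries. ATG8 was higher by 1.57 and 1.21 in replicates 3 and 4, against 0.22 and 0.25 in replicates 1 and 2. Its WT pair in replicates 1 and 2 was uneven too, at 47.8 and 18.9 CPM. The difference between the forms was not called for ATG8 by the edgeR interaction test (1.34, adjusted p = 0.12, in pup2-ts and 0.98, 0.29, in rpn5-ts). Without WT replicate 1 it was 0.54 and 0.16, and without WT replicate 2 it was 1.86 and 1.49. Either omission leaves 1 WT library among replicates 1 and 2. With all libraries, DESeq2 called the ATG8 difference in pup2-ts (1.34, adjusted p = 0.023) and not in rpn5-ts (0.93, 0.18). Between the mutants, 12 members were higher and 3 lower in rpn5-ts within replicates 3 and 4 (18% and 16.1% of all genes).

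The difference between the forms was itself tested. The pup2-ts log2 fold change was higher in replicates 3 and 4 for 4 members, ATG1, ATG9, ATG19 and ATG40. The rpn5-ts one was higher for ATG40 alone. Of all genes, 9.41% and 1.67% differed in either direction. ATG19 was at 62.8 and 56.9 CPM in WT replicates 1 and 2, and at 46.7 and 47.6 CPM in pup2-ts. In replicates 3 and 4 it was at 54.3 and 50.1 CPM in WT and at 63.3 and 61 CPM in pup2-ts. Its change thus turned direction. In pup2-ts replicates 1 and 2, ATG9 and ATG40 lay within the range of the WT pair. In replicates 3 and 4 they lay above it. ATG40, the receptor for the endoplasmic reticulum, was at 22.4, 15.3, 17.3 and 14.9 CPM in WT, at 15.8, 17.3, 33.1 and 30.3 CPM in pup2-ts and at 15, 16.5, 30.5 and 29.9 CPM in rpn5-ts. Replicates 3 and 4 of both mutants stood apart from every other library. The difference of the log2 fold changes was 1.17 ± 0.23 in pup2-ts (adjusted p = 0.014) and 1.18 ± 0.23 in rpn5-ts (0.035). ATG1 differed by 1.53 ± 0.38 in pup2-ts (adjusted p = 0.04) and 1.28 ± 0.38 in rpn5-ts (0.12), ATG9, the membrane protein of the supply vesicles, by 0.86 ± 0.21 in pup2-ts (0.03), and ATG19, the receptor of the cytoplasm-to-vacuole pathway, by 0.60 ± 0.12 (0.014). Without WT replicate 1 the ATG1 difference was smaller, 0.92 ± 0.16 in pup2-ts (adjusted p = 0.012) and 0.66 ± 0.16 in rpn5-ts (0.082), and in pup2-ts ATG9 differed by 0.59, ATG19 by 0.54 and ATG40 by 0.89, each called. DESeq2 called 7 members for the pup2-ts effect (15.5% of all genes) and 3 for the rpn5-ts effect (6.83%). Leaving out 1 library at a time gave 0 to 14 called members for either mutant. The highest count came without WT replicate 2, where 32.4% of all genes were called for pup2-ts and 23.4% for rpn5-ts. For both mutants 0 were called without WT replicate 3 or 4 or pup2-ts replicate 1, 3 or 4, and in rpn5-ts also without pup2-ts replicate 2 or rpn5-ts replicate 1, 3 or 4.

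**Figure D3:**
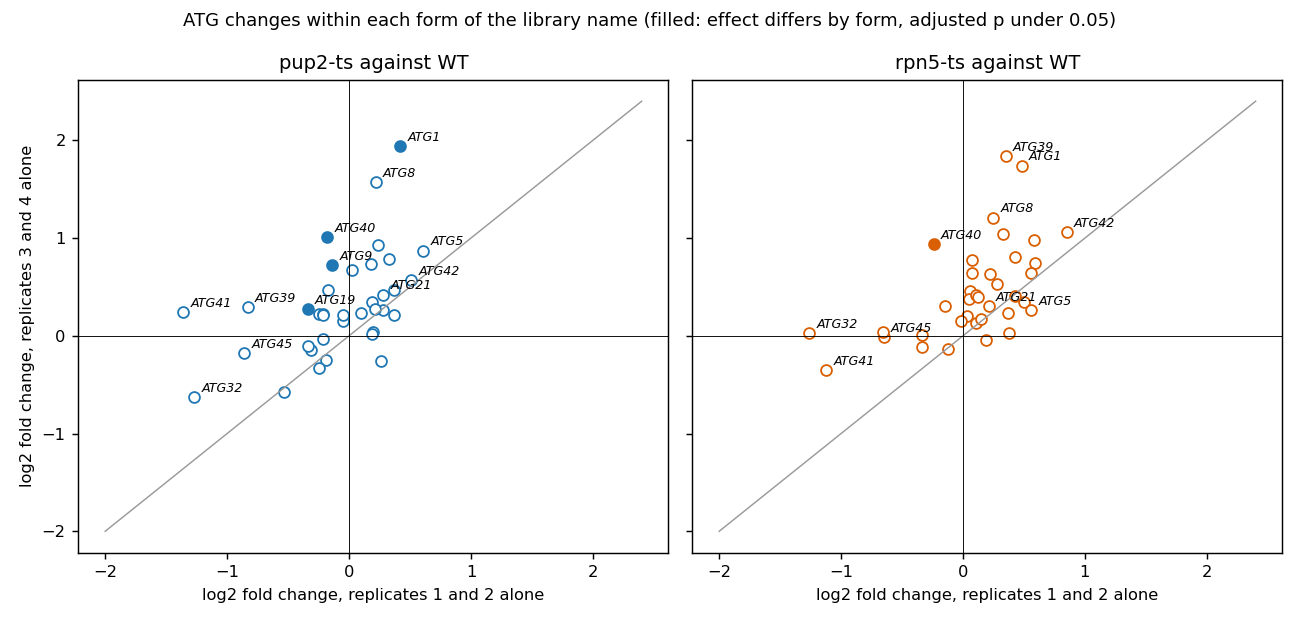
Log2 fold change against WT of the 37 ATG genes within replicates 1 and 2 alone (x axis) and within replicates 3 and 4 alone (y axis), for pup2-ts (left) and rpn5-ts (right), with the line of equal values; filled points have an effect that differs by form (adjusted p under 0.05). ATG1 lies at 0.42 and 1.94 in pup2-ts, and ATG40 is filled on both sides.

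WT replicate 1 held 5 members at more than 2-fold from the mean of the other WT libraries, in a library where 4.6% of all genes were that far: ATG1, ATG8, ATG32, ATG39 and ATG41. ATG41 was at 80.9 CPM there and at 34.7, 17.8 and 17.7 CPM in WT replicates 2 to 4. It was at 21.0, 24.1, 19.6 and 22.1 CPM in pup2-ts and at 35.8, 16.5, 14.4 and 13.1 CPM in rpn5-ts. The log2 fold changes of -0.80 ± 0.47 and -0.91 ± 0.47 (adjusted p = 0.3 and 0.23) were -0.091 and -0.20 without WT replicate 1. The summed ATG level was 1255, 1069, 1118 and 1064 CPM in WT, 1168, 1167, 1413 and 1396 CPM in pup2-ts and 1210, 1334, 1471 and 1465 CPM in rpn5-ts. WT replicate 1 overlapped both mutants in this sum.

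**Figure D4:**
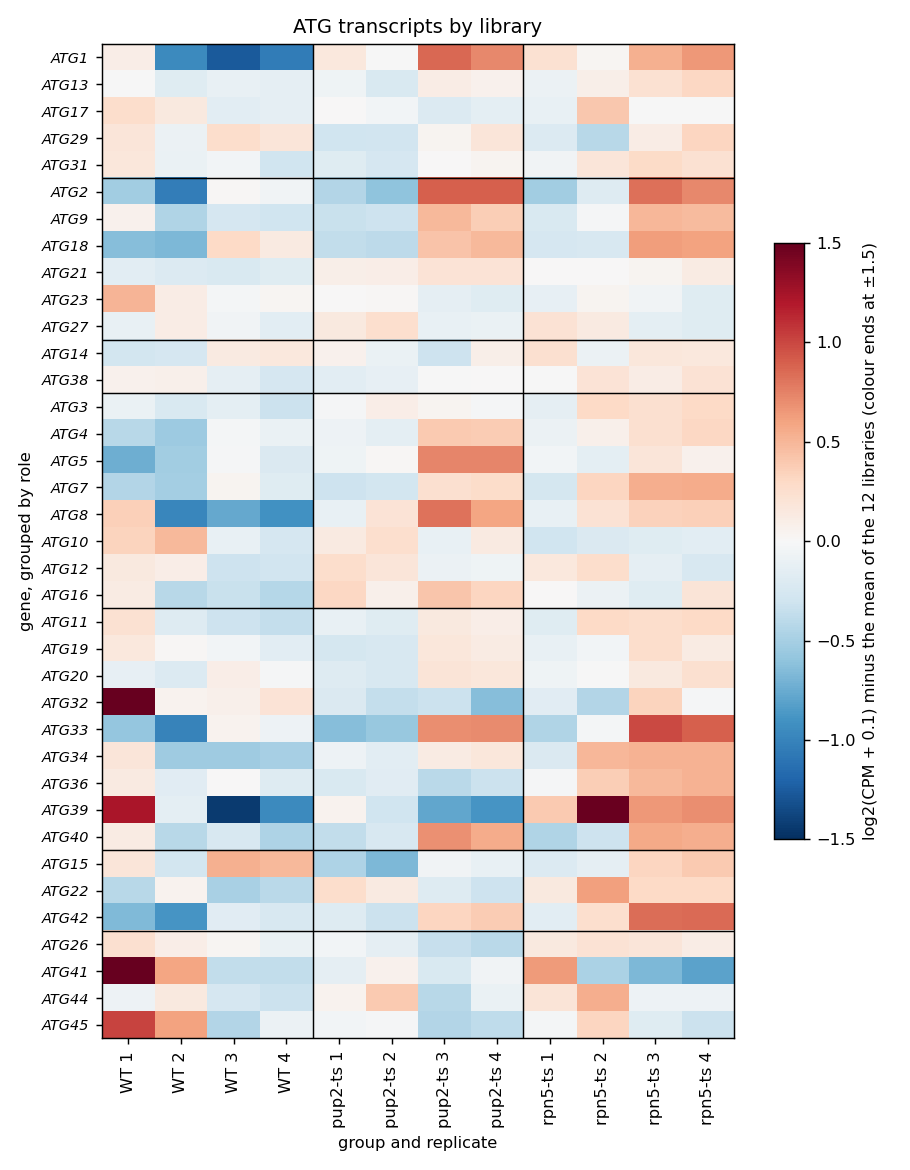
Level of each ATG gene (rows, grouped by role) in each library (columns) as log2(CPM + 0.1) minus its mean over the 12 libraries. ATG1 and ATG8 are low in WT replicates 2 to 4, ATG2, ATG18 and ATG33 are high in replicates 3 and 4 of both mutants, and ATG32, ATG39 and ATG41 are high in WT replicate 1.

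Over the 12 libraries the median Pearson correlation of log2(CPM + 0.1) over the 666 pairs of members was 0.23, and 31.8% of pairs were above 0.5. Over pairs of all genes tested the median was 0.0012 and the share above 0.5 was 22.4%. With ATG8, 16 of the 36 other members correlated above 0.5 (44.4%, against 19.6% of all genes) and 10 below 0. The genes most like ATG8 among 5559 were RAD54 (r = 0.979), MRPL3 (0.944) and RIM4 (0.940), and ATG1 ranked 6 (0.939). RAD54, a DNA repair gene, was at 110, 66.7, 67.6 and 70.8 CPM in WT, at 101, 101, 134 and 131 CPM in pup2-ts and at 101, 104, 115 and 108 CPM in rpn5-ts, so WT replicate 1 was the high WT library there as well. These correlations describe libraries that share strain, form of the name and WT replicate 1.

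Autophagy genes that carry another name were read beside the members. With all libraries, 15.4% of all genes were called in pup2-ts and 13.7% in rpn5-ts, the background for each list below. Of 14, SNX4 (also called ATG24), a sorting nexin gene, rose by 1.26 ± 0.12 in pup2-ts (adjusted p = 4.6e-05) and 1.16 ± 0.12 in rpn5-ts (1.3e-04; 1.20, 2.7e-04, without the rpn5-ts library labelled replicate 1). It averaged 54.5 ± 5.02 CPM over the WT libraries, 131 ± 21.3 over those of pup2-ts and 122 ± 8.59 over those of rpn5-ts (SD, n = 4). NVJ1, of the nucleus-vacuole contact, rose by 0.35 ± 0.10 in pup2-ts (0.044; 0.053 without the rpn5-ts library labelled replicate 1 and 0.084 without WT replicate 1). BLM10, a proteasome activator gene, was at 1.0 ± 0.31 (0.052) and 0.90 ± 0.31 (0.079), and passed the threshold with the replicate block (0.0017 and 0.0024). With the block 7 of the 14 rose in each mutant and 0 fell (19.5% of all genes rose in pup2-ts and 20.7% in rpn5-ts, and about as many fell in each). Of 15 vacuole fusion genes, YKT6, PEP3 and SEC17 rose and MON1 and VAM3 fell in pup2-ts, and in rpn5-ts YKT6 and SEC18 rose and MON1 and VAM3 fell; SEC17 was not called without WT replicate 1. The SNARE gene YKT6 rose by 0.97 ± 0.13 (4.8e-04) and 0.76 ± 0.13 (0.0031; 0.69, 0.0072, without the rpn5-ts library labelled replicate 1), and VAM3, the vacuolar SNARE, fell by 0.50 and 0.46 (0.0052 and 0.009). Of 10 vacuolar hydrolase genes, 0 were called by edgeR in pup2-ts (4 at an unadjusted p under 0.05, against 29% of all genes, and 1 by DESeq2), and PHO8, the phosphatase used in autophagy assays, rose in rpn5-ts (0.70 ± 0.18, 0.024; 0.79, 0.017, without the rpn5-ts library labelled replicate 1). With the block 6 of the 10 rose in each mutant (19.5% and 20.7% of all genes), among them PHO8 (0.025 and 0.0085) and PEP4 (0.016 and 0.0073). The protease gene PEP4 was at 0.76 ± 0.25 in rpn5-ts (0.065) and at 0.91 (0.027) without the rpn5-ts library labelled replicate 1. Of 24 nutrient-signalling genes, GTR2 rose and GCN2 fell in pup2-ts, and LST8 rose and GCN2 fell in rpn5-ts. With the block 5 rose and 2 fell in pup2-ts (19.5% and 19% of all genes). In rpn5-ts with the block 3 rose (20.7% of all genes) and 3 fell (of all genes, about as many fell as rose). Without WT replicate 1, 4 rose and 1 fell in pup2-ts (14.9% of all genes called). Of 14 tested regulators of ATG transcription, 0 were called by edgeR in pup2-ts (5 at an unadjusted p under 0.05, against 29% of all genes, and 0 by DESeq2). With the block 1 rose (PHO23, 0.019) and 3 fell in pup2-ts, MSN2 (0.021) among them (19.5% and 19% of all genes). In rpn5-ts with the block 1 rose (20.7% of all genes) and 5 fell (of all genes, about as many fell as rose), among them the decapping activator gene DHH1 (8.2e-04). RPH1, which codes for a repressor of ATG genes, fell in rpn5-ts by 0.62 ± 0.18 (0.044). It was at -0.63 (0.06) without the rpn5-ts library labelled replicate 1 and at -0.34 (0.04) without WT replicate 1; its WT mean was 143 ± 47.5 CPM and its rpn5-ts mean 93.6 ± 4.79 CPM (SD, n = 4). The GCN2 call in rpn5-ts (-0.24, adjusted p = 0.045) was lost without the rpn5-ts library labelled replicate 1 (0.064) and without WT replicate 1 (0.089).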

How the data were processed

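Per the labels' protocols, hot acid phenol was used for extraction, DNAse treatment followed, and a KAPA mRNA HyperPrep kit gave the libraries. The deposited table of the authors holds raw counts per annotated feature for the 12 samples, which the submitters' processing notes tie to STAR 2.5.2b, featureCounts, Subread 1.5.1 and the build sacCer3. Handling of reads with several places in the genome is not given in the sources used here, and 1 member, ATG38, matches another place at 90% identity. Units inside a member on the opposite strand held a median 5.87% of its read density. Some held far more: MAN_Unit189 and NUT0380 in ATG36 were at 72% and 73.5%, and YPL099C in ATG21 at 39%.

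Counts were tested with edgeR 4.0.16 (R 4.3.3), after filterByExpr and scaling by TMM, in 1 fit of the 3 groups with its quasi-likelihood test (robust, two-sided), p being adjusted by Benjamini-Hochberg over 5560 genes. Each SE is the log2 fold change divided by the root of its F value. The effect by form of the name was an interaction of strain and form. The fit was also run on simulated counts with known changes in pup2-ts. Those counts held no split by form of the name, so that run does not check the fit under such a split. Same-numbered libraries deviated together (12 correlations of 0.14 to 0.78, over the bound of 0.1), so blocked values are given for the counts that move and for named genes whose call changes; the closest library was often the other one of the same form.

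The alternatives tried were DESeq2 1.42.0, scaling by relative log expression or by upper quartiles, no filter, 10 CPM in 4 libraries, the replicate block, the form as a term, each form alone and each library left out. The settings without WT replicate 1 combined with the block or with the library labelled rpn5-ts replicate 1 left out were added after seeing the data. No pair of replicates was a copy by a chi-square test of counts. The members and lists were chosen with earlier results of these data known. Named genes are members called in a strain comparison or an interaction, the 3 with the lowest p in each comparison of strains or forms, ATG1 and ATG8, up to 4 per other list, and the 3 genes most like ATG8; other members are named after their values were seen. DAL80, of the regulators, was not used here. Tables and plots used pandas 2.3.3 and matplotlib 3.10.9 under Python 3.11.15.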

Additional observations from a re-analysis of the deposited data

Results flagged for a closer look

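In a group of 4 libraries, the gap of the highest or lowest library to its neighbour passed the 95% critical value of Dixon's test, as a share of the group's range, in 10 of 111 combinations of member and group (9.01%). Chance flags about 1 in 20. WT replicate 1 stood apart for ATG1 (47.7 CPM), ATG8 (47.8), ATG16 (8.09), ATG32 (8.77) and ATG34 (16.9), above the other WT libraries each time. WT replicate 2 stood above the others for ATG22 (43.2 CPM). The library labelled rpn5-ts replicate 1 stood below the other rpn5-ts libraries for ATG3 (25.2 CPM), ATG11 (52.1) and ATG34 (12.8) and above them for ATG41 (35.8).

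The effect of a mutant differed between the forms of the sample name, by the interaction test of edgeR, for ATG1 (a difference of log2 fold changes of 1.53), ATG9 (0.86), ATG19 (0.60) and ATG40 (1.17) in pup2-ts and for ATG40 (1.18) in rpn5-ts. Each of these log2 fold changes was higher in replicates 3 and 4. ATG19 in pup2-ts lay below WT in replicates 1 and 2 and above it in replicates 3 and 4. Without WT replicate 1 the ATG1 difference in pup2-ts was 0.92 (adjusted p = 0.012). What the form of the name stands for was not tested.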

How the results depend on the processing

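Of 470 alternative values of single named members, 341 kept their side of the threshold, 103 lost the call, 26 gained it and 0 turned direction. The cause of the moves below was not tested.

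In pup2-ts against WT, 855 genes and 4 members were called. The replicate block gave 2142 and 12, the form as a term 2371 and 15, replicates 3 and 4 alone 3651 and 25, the block without rpn5-ts replicate 1 2297 and 17, and the block without WT replicate 1 2730 and 18. Members called were 7 by DESeq2 (22.1% of all genes) and 2 in replicates 1 and 2 alone. In rpn5-ts against WT, with 760 genes and 5 members, the same settings gave 2256 and 14, 2474 and 16, 3531 and 26, 2306 and 17, and 2927 and 24. Members called were 3 in replicates 1 and 2 alone and 9 without WT replicate 1 and the library labelled rpn5-ts replicate 1. Between the mutants, with 2 genes and 0 members, DESeq2 gave 27 and 2, the 10 CPM filter 4 genes, the replicate block 7 genes, the form as a term 32 and 1, replicates 1 and 2 alone 1 gene, replicates 3 and 4 alone 1896 and 15, the block without rpn5-ts replicate 1 371 and 8, that without WT replicate 1 276 and 5, and without both of those libraries 76 and 1. DESeq2 called 7 members for the pup2-ts effect by form (15.5% of all genes) and 3 for the rpn5-ts effect (6.83%).

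Without WT replicate 1 and the library labelled rpn5-ts replicate 1, 903 genes were called in pup2-ts and 999 in rpn5-ts against WT.

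Leaving out 1 library at a time gave 528 to 872 genes in pup2-ts, 446 to 938 in rpn5-ts and 2 to 46 between the mutants, and 1 to 5, 0 to 8 and 0 to 1 members. For the form of the name it gave 17 to 24 members, and for the effects by form 0 to 14 in each mutant. The median member change in pup2-ts was -0.046 in replicates 1 and 2 alone and 0.24 in replicates 3 and 4 alone, against 0.13. The smallest count of a member in a library was 26. The SE against WT was highest for ATG39, at 0.52 in both mutants.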
